A study of Rattus norvegicus with 65 samples.

Results

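The 30 genes described here carry cells through the division cycle, from the cyclins of G1 through DNA synthesis and mitosis to the separation of daughter cells. They were listed by name, and all 30 have a probe set that the array annotation pairs with 1 gene symbol, among 14217 genes with such a probe set. Where a gene had several, the probe set with the highest mean over all arrays was used, so each gene is 1 value per rat. No measured difference between groups entered that choice. Liver RNA was measured on Affymetrix arrays in 65 male Sprague-Dawley rats, 6 weeks old, 1 array per rat, to tell genotoxic from nongenotoxic liver carcinogens. A genotoxic set held rats given 2-AAF, 3MeDAB or DEN, a nongenotoxic set held rats given 1,4-Dioxane, Clofibrate or DL-Ethionine, and a test set held rats given DCP, ME, SN or Urethane. Each compound has a short group, labelled 3 hours, and a long group, labelled 72 hours, of 3 rats each except DEN short with 2. The genotoxic and the nongenotoxic set have 1 control group of 3 rats each, with no time or vehicle stated, and the test set has no control.

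The words short and long are used for the durations, because the treatment protocol names another hour of autopsy, which the labelled hours do not match. For the test set the labels give 1 dose in the short and 3 doses in the long groups, of 50 for DCP and SN, 300 for ME and 500 for Urethane, with no unit. Rats carry the name of their group and their number in it. Values are log2 signals from the authors' RMA normalization, and 1 unit is a doubling. Differences are log2 differences ± SE from limma, and a call means a two-sided p under 0.05 after Benjamini-Hochberg adjustment over all 14217 genes of a comparison. The replicates are labelled biological, 1 rat each. Counts of calls with a rat left out are given throughout without the share of all genes called in that fit. They show only how the number of calls moved.

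The adult liver divides little, and its hepatocytes can re-enter the cycle after injury or loss of tissue. D-type cyclins, made in response to growth signals, and E-type cyclins drive the passage out of G1. Enzymes of nucleotide supply and the sliding clamp PCNA serve DNA synthesis, CDK1 with cyclins A and B starts mitosis, and Polo-like and Aurora kinases, the spindle checkpoint, the anaphase-promoting complex and the spindle motors carry it through. Many genes of the late phases are held silent in resting cells and switched on late in the cycle through CHR elements and CCAAT boxes in their promoters, whereas genes of DNA synthesis are classic targets of E2F factors.

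Shown are 4 promoters, picked by the response in these data, since Tyms rose in groups where Ccnb2, Cdk1 and Ect2 fell. Each is the 250 bases before and 50 bases after the start in RefSeq, build GRCr8. Capitals mark a CCAAT box (CCAAT, or ATTGG on the other strand), a CHR element (TTTGAA or TTCAAA) or an E2F site (TTTGGCGC, TTTCCCGC or TTTCGCGC, or their reverse complements). Ccnb2 (chr8:79981609-79981908, minus strand) encodes cyclin B2, Cdk1 (chr20:19265043-19265342, plus strand) its kinase, Ect2 (chr2:111966577-111966876, minus strand) the exchange factor that sets up the cleavage furrow, and Tyms (chr9:120776034-120776333, minus strand) thymidylate synthase.
Ccnb2: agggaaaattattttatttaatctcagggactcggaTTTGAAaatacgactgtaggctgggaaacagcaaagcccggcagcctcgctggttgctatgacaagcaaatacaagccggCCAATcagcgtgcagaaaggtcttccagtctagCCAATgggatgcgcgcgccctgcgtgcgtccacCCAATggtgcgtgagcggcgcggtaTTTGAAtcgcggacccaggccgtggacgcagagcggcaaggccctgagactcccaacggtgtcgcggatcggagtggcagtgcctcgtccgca
Cdk1: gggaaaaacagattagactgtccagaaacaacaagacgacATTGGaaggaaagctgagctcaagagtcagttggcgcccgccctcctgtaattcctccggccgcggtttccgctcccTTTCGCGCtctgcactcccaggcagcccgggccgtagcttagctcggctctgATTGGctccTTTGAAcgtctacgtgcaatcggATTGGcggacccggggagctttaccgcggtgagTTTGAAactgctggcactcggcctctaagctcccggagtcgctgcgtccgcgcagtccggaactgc
Ect2: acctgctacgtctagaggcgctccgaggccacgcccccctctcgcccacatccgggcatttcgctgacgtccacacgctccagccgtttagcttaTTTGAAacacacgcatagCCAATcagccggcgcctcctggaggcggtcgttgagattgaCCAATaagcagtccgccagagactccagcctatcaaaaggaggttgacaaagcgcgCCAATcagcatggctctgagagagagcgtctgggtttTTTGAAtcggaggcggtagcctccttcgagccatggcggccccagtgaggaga
Tyms: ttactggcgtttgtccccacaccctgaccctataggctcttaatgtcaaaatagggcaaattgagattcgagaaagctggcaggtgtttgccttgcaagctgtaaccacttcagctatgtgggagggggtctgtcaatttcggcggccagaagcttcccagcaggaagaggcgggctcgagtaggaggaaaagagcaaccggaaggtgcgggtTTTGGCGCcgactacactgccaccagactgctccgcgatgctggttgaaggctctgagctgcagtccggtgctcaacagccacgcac
In Ccnb2 the CHR element nearest the start begins at position -43 from it, with CCAAT boxes at positions -134, -101 and -68. Cdk1 holds CHR elements at -72 and -16 and an E2F site at -133. In Ect2 the nearer CHR element begins at -3. The Tyms window holds neither a CCAAT box nor a CHR element and has an E2F site at -37.

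Promoters of 25 of the 30 genes were in the table, and those of Ccnd1, Ccne2, Ccna2, Aurkb and Ube2c were not used here. A CCAAT box lay in 19 of the 25 (76.0%, against 37.7% of 27457 promoters of the same length) and a CHR element in 15 (60.0% against 18.1%). Both lay in 14 of 25 (56.0% against 7.25%), namely Prc1, Plk1, Mki67, Ect2, Nusap1, Cdc20, Ccnb2, Hmmr, Top2a, Birc5, Cenpf, Cdkn3, Cks2 and Cdk1. A GC box (GGGCGG, either strand) lay in 18 (72.0% against 34.9%) and a TATA box (TATAAA, either strand) in 1 (4.0% against 14.3%). An E2F site of the 3 forms lay in Cdk1 and Tyms (8.0% against 1.82% of all promoters). Cks2, Birc5 and Hmmr hold both a CCAAT box and a CHR element and were not called in 2-AAF long. Ccnb1 and Kif20a hold no CHR element and fell there. Pcna, Rrm1 and Tk1 hold none of the E2F forms. The GC box can overlap an E2F site, and each match is a description of letters only. Whether the promoters have a part in the changes was not tested.

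Both training sets and the test set appear to have been normalized apart, since the ranges of their arrays' lowest and highest values do not overlap, so no value is compared across sets. The hepatocyte genes Alb (14.19 to 15.79), Apoa1 (13.1 to 14.02), Ttr (13.9 to 14.5) and Serpina1 (13.8 to 14.3) were high on all 65 arrays, all products of hepatocytes. The mean log2 level of 11 hepatocyte markers was 13.73 in 2-AAF long, 13.635 in 3MeDAB long and 13.86 in DEN long. The genotoxic control had 13.93. In DL-Ethionine long it was 13.97 against 14.08 in the control. Every rat of these groups lay below its control, whereas 1,4-Dioxane long and Clofibrate long overlapped theirs. The part of this list in the results was not tested. Precision is limited by the number of arrays, which carry no read depth. On a bulk array, fewer dividing cells and less RNA per cell cannot be told apart.

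Against their own control, the short groups showed little. No cell cycle gene was called in 2-AAF short, 3MeDAB short, 1,4-Dioxane short, Clofibrate short or DL-Ethionine short by limma, where the shares of all genes called higher and lower were 3.1% and 3.07%, 0.155% and 0.408%, 1.5% and 2.62%, 1.06% and 0.964%, and 1.52% and 2.1%, in that order. At an unadjusted p under 0.05, 1 gene was lower in 2-AAF short, 1 in 3MeDAB short, 2 in 1,4-Dioxane short and 2 in Clofibrate short, with 1 higher in each of the last pair. DL-Ethionine short had 10 of 30 genes lower at that unadjusted p, with a median difference of -0.41 against -0.01 over all genes, and 1 was called without nongenotoxic control 1. In DEN short Pcna rose by 0.42 ± 0.11 (adjusted p = 0.0108), where 5.36% of all genes were called higher and 7.5% lower. Without DEN short 2 it was not called (adjusted p = 0.201), in a fit where DEN short is 1 rat, assumed to vary like the other groups.

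2-AAF long lowered the machinery of mitosis. Of the 30 genes, 19 fell and 1 rose, where 12.1% of all genes were called lower and 12.6% higher, and the median difference was -0.78 against 0.02 over all genes. Ccnb2 (-2.45 ± 0.32), Cdkn3 (-2.37 ± 0.40), Ccna2 (-2.21 ± 0.33) and Ect2 (-2.04 ± 0.34) fell furthest, and Tyms rose (1.63 ± 0.18, adjusted p = 4.81e-08). The genes not called were Ccne1, Ccne2, Tk1, Cks2, Aurka, Aurkb, Birc5, Bub1b, Kif11 and Hmmr. Leaving out each rat in turn left 17 to 20 calls. Of 12 macrophage markers 7 fell, and their mean log2 level was 9.29 to 9.70 in the 2-AAF long rats against 10.0 to 10.3 in the control. Of 13 leukocyte markers 3 fell (6.03 to 6.15 against 6.32 to 6.34). The part of either list in the result was not tested.

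3MeDAB long split the list. Tyms (2.73 ± 0.18, adjusted p = 1.03e-13), Ccnd1 (0.89 ± 0.27) and Ccne1 (0.47 ± 0.19) rose, and 8 genes fell, where 28.1% of all genes were called higher and 15.1% lower. Cdkn3 (-1.52 ± 0.40), Kif20a (-1.01 ± 0.30), Ect2 (-0.97 ± 0.34) and Cdk1 (-0.92 ± 0.33) fell furthest, followed by Nusap1, Ccnb2, Ccnb1 and Tk1. The 3 of 30 called higher are fewer than that background and the 8 of 30 called lower are more, and the median difference was -0.27 against 0.01. Without 3MeDAB long 2, 5 genes were called. Without genotoxic control 2, 6 were called, and 7 were without 3MeDAB long 3 or without genotoxic control 3. Cdk1 lost its call without any of these 4 rats (adjusted p up to 0.114), Ect2 without 3MeDAB long 2 or genotoxic control 2 (up to 0.0845), and Ccne1 without each of 5 of the 6 rats (up to 0.156). Of 12 macrophage markers 7 rose and 1 fell, with a mean log2 level of 10.5 to 10.9 against 10.0 to 10.3. Of 6 neutrophil markers 2 rose (6.45 to 6.84 against 5.63 to 5.70), and 4 rose and 2 fell among 13 markers of stellate cells and fibroblasts (8.13 to 8.55 against 7.97 to 8.07). No rat overlapped the control in these 3 lists, and their part was not tested. The mean of 7 cholangiocyte and progenitor markers was 6.88 to 7.06 against 6.70 to 6.86, also without overlap. The part of that list was not tested. RNA quality, read as the Gapdh signal at the 3' end less that at the 5' end, was 0.240 to 0.393 against 0.443 to 0.633 in the control, with no overlap, and its part was not tested either. The 3MeDAB long values also lay below 3MeDAB short (0.623 to 0.802). DEN short (0.744 to 0.750) lay above the control. 1,4-Dioxane short (0.377 to 0.496) lay below its own control (0.503 to 0.908). In the test set DCP long (0.3275 to 0.604) lay below Urethane long (0.741 to 0.863). The part of these differences was not tested.

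DEN long raised cell cycle genes. Every one of the 30 differences was positive, 18 genes rose and none fell by limma (none lower at an unadjusted p under 0.05 either), where 8.48% of all genes were called higher and 4.74% lower, and the median difference was 0.71 against 0.00. The 4 highest were Ccnd1 (1.68 ± 0.27, adjusted p = 4.43e-05), Tyms (1.38 ± 0.18), Ccna2 (1.33 ± 0.33) and Ccne2 (1.28 ± 0.20). DEN long 3 had the highest value of the 3 rats in 30 of 30 genes. Without it Ccnb2 (-0.01) and Cdkn3 (-0.37) were no longer positive and 4 genes were called, Ccnd1 (1.57), Tyms (1.11), Ccne2 (0.86) and Bub1b (0.54), and Ccna2 was not (adjusted p = 0.104). Bub1b is a low signal, above the median of all training values (6.22) on fewer than 2 arrays. Without genotoxic control 1, 8 genes were called. Of 12 macrophage markers 8 rose and 1 fell (mean log2 level 10.7 to 10.9 against 10.0 to 10.3), 6 of 13 stellate cell and fibroblast markers rose (8.57 to 8.78 against 7.97 to 8.07), and of 13 leukocyte markers 5 rose and 1 fell (6.70 to 6.72 against 6.32 to 6.34). Their part in the result was not tested.

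DL-Ethionine long, in the nongenotoxic set, also lowered the mitotic genes. Of the 30 genes 21 fell and 3 rose, where 18.5% of all genes were called lower and 23.9% higher, and the median difference was -0.89 against 0.00. Ccnb2 (-2.62 ± 0.32, adjusted p = 3.78e-08), Ect2 (-2.55 ± 0.34), Ccna2 (-2.24 ± 0.33) and Cdkn3 (-1.90 ± 0.40) fell furthest. Tyms (2.51 ± 0.18), Ccnd1 (1.04 ± 0.27) and Pcna (0.41 ± 0.10) rose. Ccne1, Ccne2, Cks2, Aurka, Kif11 and Nusap1 were not called, and 22 to 24 calls were left with each rat left out. Of 12 macrophage markers 11 rose and 1 fell, with a mean log2 level of 10.7 to 11.1 against 9.55 to 9.85 in the control. Of 8 endothelial markers 5 rose (9.17 to 9.26 against 8.53 to 8.78), of 13 leukocyte markers 6 rose (6.33 to 6.71 against 6.23 to 6.25), and of 13 stellate cell and fibroblast markers 3 rose (8.10 to 8.19 against 7.81 to 8.02). The part of these 4 lists was not tested.

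1,4-Dioxane long and Clofibrate long gave no call in the 30 genes by limma. At an unadjusted p under 0.05, 1 gene was higher in 1,4-Dioxane long and 3 were lower in Clofibrate long. Few genes of any kind were called there, 0.0703% higher and 0.0633% lower in 1,4-Dioxane long and 0.0492% higher and 0.0563% lower in Clofibrate long. The median differences were 0.16 and -0.22, against 0.01 in each over all genes, with 23 of 30 differences positive in 1,4-Dioxane long and 0 of 30 in Clofibrate long. The same rat was highest in 25 genes in 1,4-Dioxane long and in 28 in Clofibrate long, so these signs are not independent. Centred on the set's mean, the median of the 30 genes was 0.32, 0.27 and 0.66 in the 1,4-Dioxane long rats. It was 0.37, -0.26 and -0.10 in the Clofibrate long rats. The control rats had 0.03, 0.39 and 0.35, so both groups overlapped the control.

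**Figure D1:**
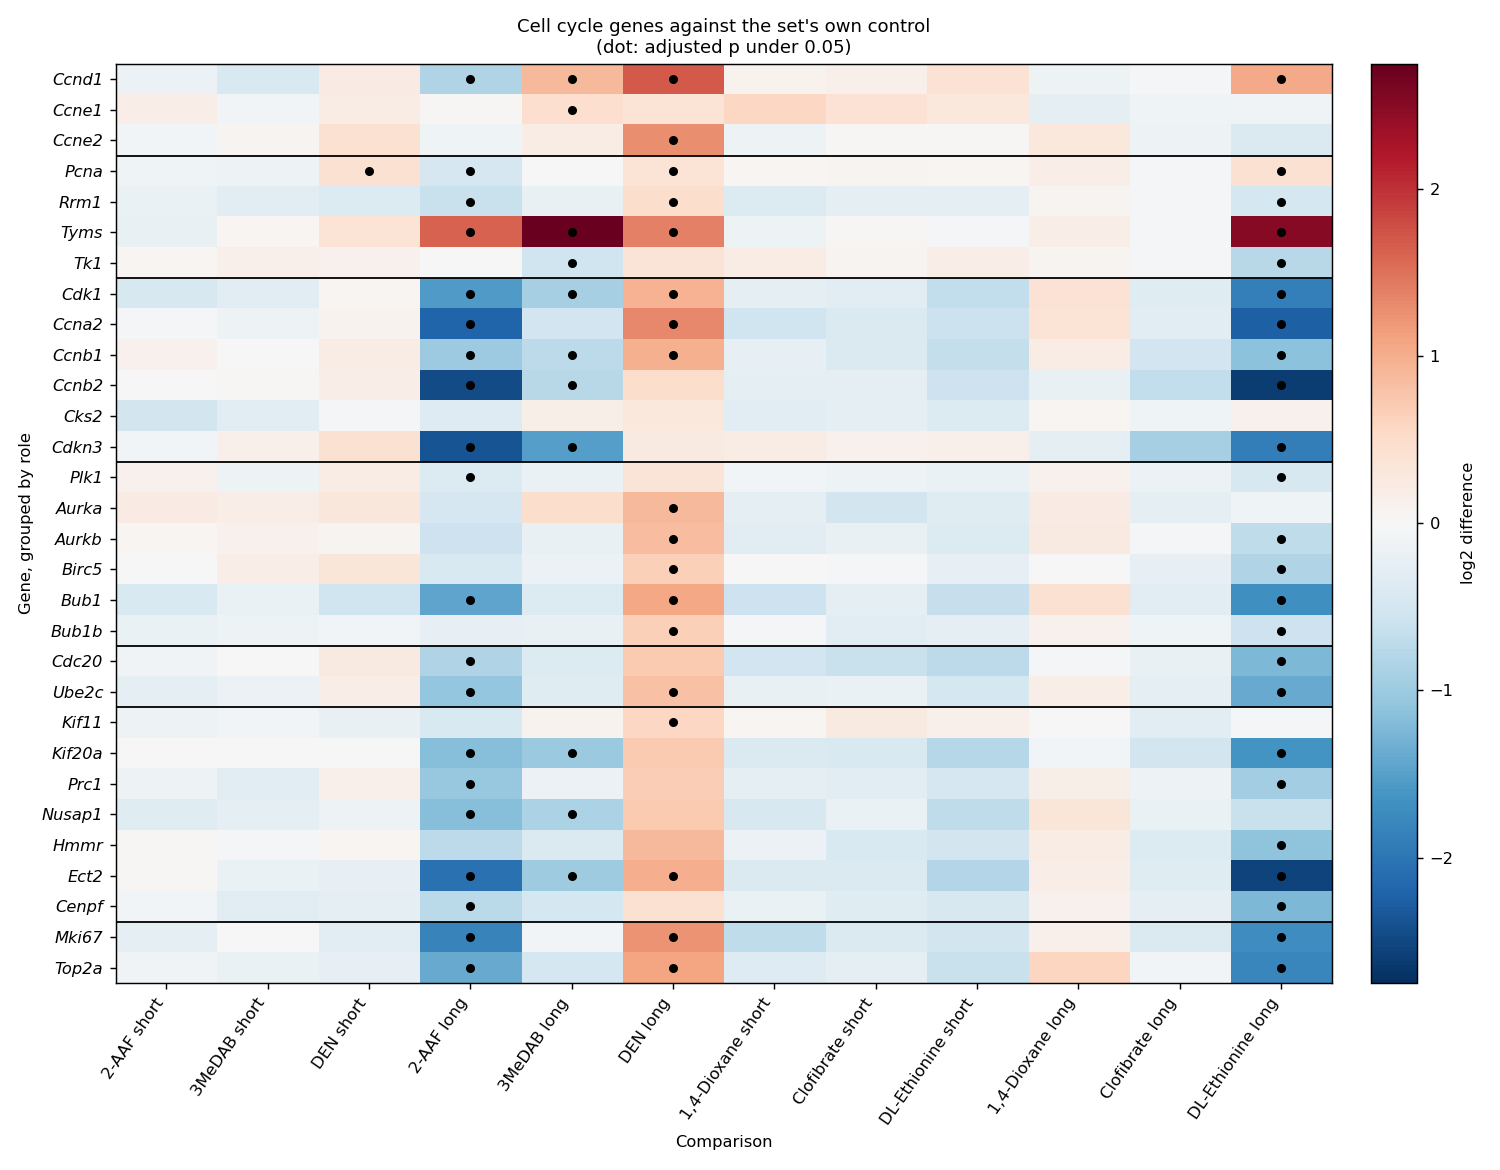
Log2 difference of each of the 30 genes (rows, grouped by role) between a treated group and the control of its set (columns), with a dot where the adjusted p was under 0.05. The 2-AAF long and DL-Ethionine long columns are blue for the mitotic genes with 19 and 21 genes lower, the DEN long column is red with 18 genes higher, and Tyms is red in all 4 long groups with calls.

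Among the G1 cyclins, Ccnd1 and the mitotic genes parted in 2 groups. Ccnd1 encodes cyclin D1, the partner of CDK4 and CDK6. Its control values were 9.35, 9.39 and 9.54 in the genotoxic set. DEN long rats had 11.04, 10.96 and 11.32, and 3MeDAB long rats 10.36, 10.22 and 10.38, all above the control. In 2-AAF long the values were 8.77, 7.62 and 9.39, which overlap the control, and the fall (-0.84 ± 0.27, adjusted p = 0.0237) lost its call without 2-AAF long 2, genotoxic control 2 or genotoxic control 3 (adjusted p up to 0.377). In the nongenotoxic set the control had 9.23, 9.31 and 9.13, and DL-Ethionine long 10.50, 10.09 and 10.18, again without overlap (adjusted p = 0.00242). The other 2 probe sets of Ccnd1 had the same direction in each of these 4 groups, from 0.66 to 1.71 where it rose and -0.69 and -1.48 in 2-AAF long. Ccne1 and Ccne2 encode the cyclins E that activate CDK2. Ccne2 rose in DEN long by 1.28, from a mean of 5.52 to 6.80, while its other probe set was at 0.03 there.

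Of the genes of DNA synthesis, Tyms moved apart from the mitotic genes. Tyms encodes thymidylate synthase, which makes the thymidine nucleotide of DNA. The genotoxic control had 5.48, 5.55 and 5.89. Values were 6.85, 7.48 and 7.47 in 2-AAF long, 8.37, 8.36 and 8.37 in 3MeDAB long and 6.70, 6.79 and 7.55 in DEN long. All 9 rats lay above the control, with 3MeDAB long the highest. In the nongenotoxic set the control had 5.50, 5.50 and 5.34 and DL-Ethionine long 8.05, 7.83 and 7.995, while 1,4-Dioxane long (5.50 to 5.75) and Clofibrate long (5.28 to 5.53) overlapped the control. The gene has 1 probe set, so no other could be set beside it, and each of these 4 calls held with any 1 rat of the comparison left out.

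Pcna, the sliding clamp of DNA polymerase, had 10.50, 10.61 and 10.48 in the genotoxic control. It was at 9.86, 10.16 and 10.15 in 2-AAF long, all lower (-0.47 ± 0.10, adjusted p = 0.000838), and at 10.93, 10.74 and 11.07 in DEN long, all higher (0.38 ± 0.10, adjusted p = 0.00905, or 0.0859 without DEN long 3). In DL-Ethionine long its 10.83, 10.66 and 10.83 lay above the control's 10.27, 10.37 and 10.45. Rrm1, the large subunit of ribonucleotide reductase, fell in 2-AAF long (-0.62 ± 0.14) and DL-Ethionine long (-0.47 ± 0.14), and rose in DEN long (0.49 ± 0.14, not called without DEN long 3 or genotoxic control 3). Tk1, thymidine kinase of the salvage pathway, fell in 3MeDAB long (-0.55 ± 0.14) and DL-Ethionine long (-0.76 ± 0.14), where its other 2 probe sets were at -0.04 and 0.04 in 3MeDAB long and at -0.79 and -0.10 in DL-Ethionine long. In 2-AAF long Tk1 was at 0.01 ± 0.14.

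CDK1, its cyclins and its regulators showed the widest falls. Ccnb2 had 7.48, 7.37 and 7.48 in the genotoxic control against 5.46, 4.84 and 4.68 in 2-AAF long, a 5.48-fold lower mean (adjusted p = 1.14e-06). In DL-Ethionine long it had 5.52, 5.29 and 5.13 against 7.73, 8.02 and 8.03, a 6.13-fold lower mean. In both groups every treated rat lay below every control rat. In 3MeDAB long the values of 6.81, 6.57 and 6.66 also lay below the control, by 1.70-fold, a difference that passed narrowly (adjusted p = 0.0497) and lost its call with each rat left out (up to 0.125). Ccna2, cyclin A2, had 6.50, 7.07 and 6.56 in the genotoxic control, 4.69, 4.40 and 4.42 in 2-AAF long and 7.76, 7.38 and 8.98 in DEN long, so that the control lay between groups that did not overlap it. Cdk1 fell in 2-AAF long (-1.55 ± 0.33) and DL-Ethionine long (-1.87 ± 0.33).

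Cks2, the small subunit that docks on CDK1, did not follow the others of its group. Its values were 9.45, 9.78 and 9.50 in the genotoxic control, 9.53, 9.23 and 8.93 in 2-AAF long and 9.84, 9.56 and 10.23 in DEN long, and 9.70, 9.67 and 9.50 in DL-Ethionine long against 9.49, 9.62 and 9.40. All 3 groups overlapped their control, and Cks2 was called in no comparison with a control. Cdkn3, the phosphatase that acts on CDKs, fell in 2-AAF long, 3MeDAB long and DL-Ethionine long and was at 0.25 ± 0.40 in DEN long.

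Of 6 mitotic kinase and spindle checkpoint genes, 2 fell in 2-AAF long (12.1% of all genes) and 0 were called in 3MeDAB long (43.1%). In DEN long 5 rose (8.48% of all genes) and in DL-Ethionine long 5 fell (18.5%). With so few genes, these counts are descriptions only. Plk1, the Polo-like kinase of mitotic entry, had a narrow range, with 6.69, 6.89 and 6.79 in the genotoxic control, 6.43, 6.52 and 6.28 in 2-AAF long and 7.04, 7.02 and 7.36 in DEN long. The 2-AAF long rats lay below and the DEN long rats above the control. Its fall in 2-AAF long (-0.38 ± 0.14, adjusted p = 0.0467) lost its call with each rat left out (up to 0.169). Bub1, a checkpoint kinase, fell in 2-AAF long (-1.45 ± 0.32) and DL-Ethionine long (-1.69 ± 0.32), and rose in DEN long (1.06 ± 0.32, not called without DEN long 3, genotoxic control 1 or genotoxic control 3, adjusted p up to 0.257). Aurka, the Aurora kinase of the spindle poles, was at -0.12 ± 0.25 in DL-Ethionine long.

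Cdc20, the activator of the anaphase-promoting complex, had 7.04, 7.30 and 7.57 in the genotoxic control and 6.41, 6.61 and 6.42 in 2-AAF long (-0.83 ± 0.27, adjusted p = 0.0241, up to 0.115 with a rat left out). Its other 4 probe sets were at 0.08, -0.20, -0.09 and 0.04 in 2-AAF long, so none showed a fall of that size. Its DEN long values of 7.62, 7.45 and 8.99 overlapped the control. In DL-Ethionine long it had 6.69, 6.52 and 6.35 against 7.28, 8.12 and 7.86 (-1.24 ± 0.27), with the other probe sets from -0.66 to -0.08. Ube2c, its ubiquitin-conjugating enzyme, fell with both compounds (-1.06 ± 0.24 and -1.39 ± 0.24).

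Of the 7 spindle, midzone and cytokinesis genes, 5 fell in 2-AAF long, 3 in 3MeDAB long and 5 in DL-Ethionine long, and 2 rose in DEN long. The shares of all genes called lower were 12.1%, 15.1% and 18.5%, in that order, and 8.48% were called higher in DEN long. These counts too are descriptions only. Prc1, which bundles the midzone microtubules, had 7.26, 7.56 and 7.57 in the genotoxic control, 6.42, 6.65 and 6.21 in 2-AAF long and 7.79, 7.72 and 8.91 in DEN long. It fell in 2-AAF long (adjusted p = 0.00146) and was not called in DEN long (0.68 ± 0.24, adjusted p = 0.0525), although no rat overlapped. In DL-Ethionine long Prc1 was at 6.65, 6.65 and 6.27 against 7.04, 7.68 and 7.71. Kif11, the motor that pushes the spindle poles apart, was an exception in DL-Ethionine long, at -0.02 ± 0.16, where Kif20a, a motor of cytokinesis, fell (-1.64 ± 0.30).

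The proliferation marker Mki67 and Top2a, the topoisomerase that untangles chromosomes, followed the mitotic genes. Top2a had 7.21, 7.41 and 7.27 in the genotoxic control, 5.95, 5.67 and 6.08 in 2-AAF long, 7.06, 6.58 and 6.79 in 3MeDAB long and 8.21, 7.87 and 9.09 in DEN long. None of the 3 treated groups overlapped the control. It fell in 2-AAF long (-1.39 ± 0.28), was not called in 3MeDAB long (-0.49 ± 0.28, adjusted p = 0.17) and rose in DEN long (1.10 ± 0.28, adjusted p = 0.109 without DEN long 3). In DL-Ethionine long its 5.77, 5.80 and 5.28 lay below the control's 7.10, 7.37 and 7.78 (-1.80 ± 0.28, adjusted p = 3.42e-06).

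**Figure D2:**
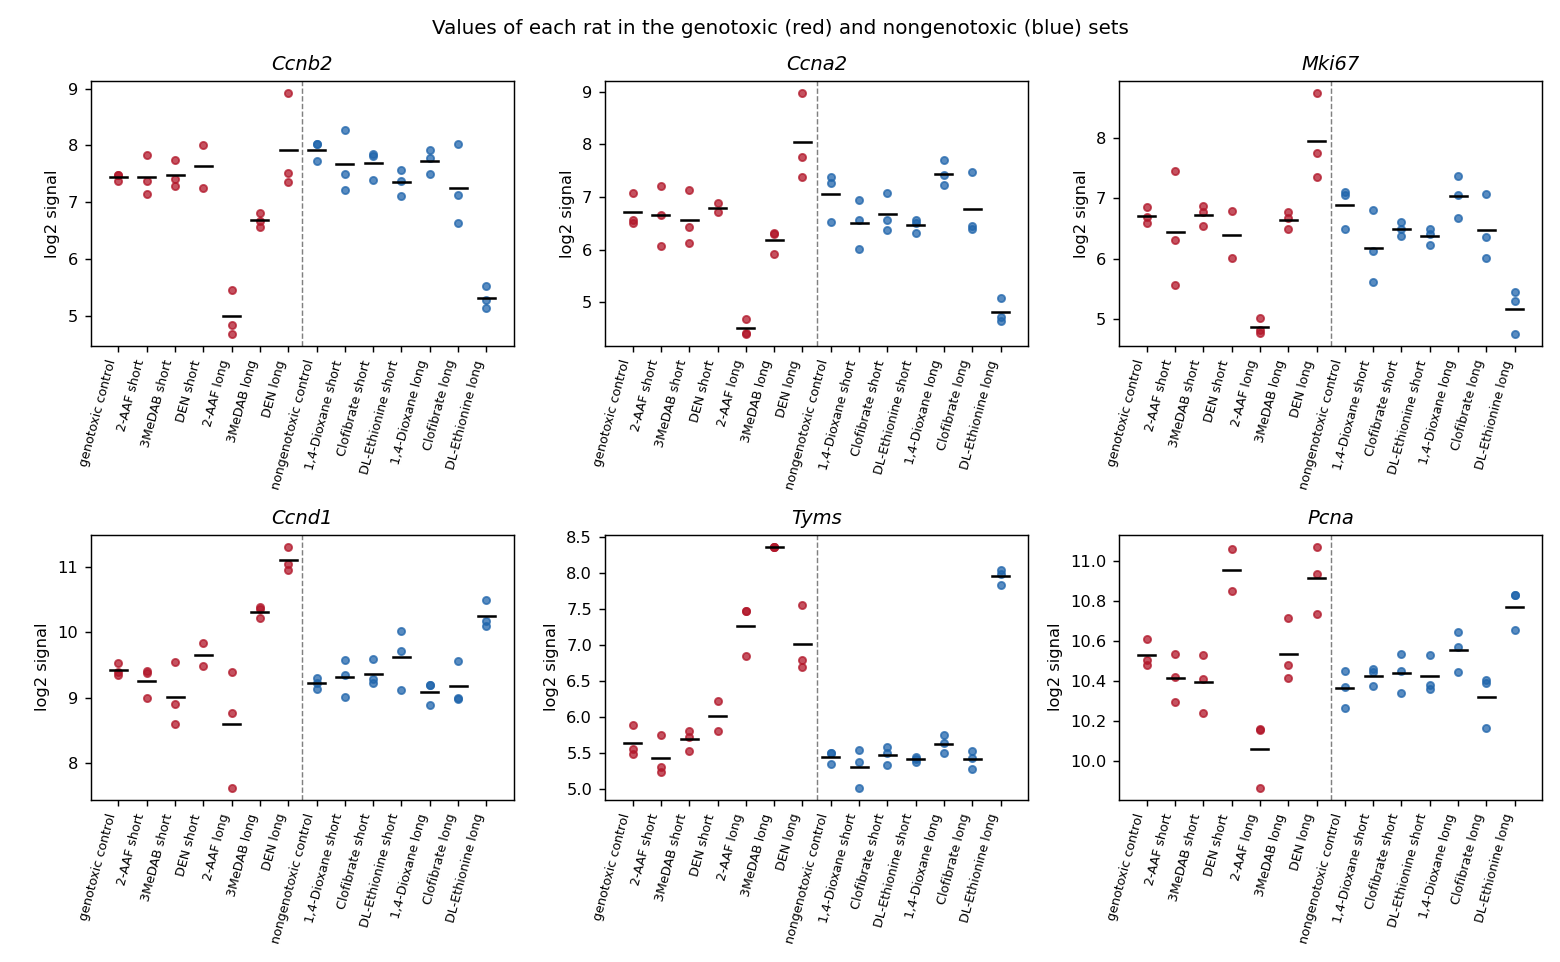
Log2 signal of each rat (points) and group mean (bars) for 6 genes in the genotoxic set (red) and the nongenotoxic set (blue), each with its control at the left; the sets are not on a shared scale. Ccnb2, Ccna2 and Mki67 are low in 2-AAF long and DL-Ethionine long, while Tyms is high in those groups and in 3MeDAB long, and Ccnd1 is high in 3MeDAB long, DEN long and DL-Ethionine long.

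Long and short groups of the same compound were compared to ask how the genes moved with duration. In 2-AAF 19 genes were lower and 1 higher in the long group (background 13.2% and 14.6%), with Ccnb2 at -2.46 ± 0.32 and Tyms at 1.84 ± 0.18. 2-AAF short 2 was the highest rat of its group in 28 of 30 genes, and without it 10 genes were called. In DL-Ethionine 14 were lower and 3 higher (16.9% and 24.3%), with Ccnb2 at -2.04 ± 0.32 and Tyms at 2.55 ± 0.18. In 3MeDAB 6 were lower and 4 higher (19% and 31.4%), with Cdkn3 at -1.66 ± 0.40 and Tyms at 2.68 ± 0.18, and 6 to 8 calls were left with a rat left out. Without 3MeDAB long 3 or without 3MeDAB short 1 the count was 6.

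In DEN 14 genes were higher in the long group and none lower by limma (14.7% and 9.02% of all genes, none of the members lower at an unadjusted p under 0.05). Bub1 (1.61 ± 0.35), Mki67 (1.55 ± 0.38), Ccnd1 (1.44 ± 0.31) and Top2a (1.32 ± 0.32) led. Without DEN long 3, 8 were called, and 7 without DEN short 3, when Mki67 was not called (adjusted p = 0.108). Leaving out a DEN short rat leaves 1, which is assumed to vary like the other groups. In 1,4-Dioxane Ccne1 was lower (-0.80 ± 0.19) and Top2a higher (0.96 ± 0.28, adjusted p = 0.049) in the long group, where 1.65% and 2.15% of all genes were called. Top2a lost its call without each of 5 of the 6 rats and Ccne1 without 1,4-Dioxane long 3 or 1,4-Dioxane short 2 (up to 0.242 and 0.0599), and 4 genes were called without 1,4-Dioxane short 3. Clofibrate had no call by limma (0.943% of all genes higher and 1.5% lower), with 3 genes lower at an unadjusted p under 0.05.

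Pairs of compounds at the long duration were compared directly, with no control. DEN long exceeded 2-AAF long in 27 of 30 genes (13.4% of all genes were called higher and 11.6% lower), by up to 3.54 ± 0.33 for Ccna2, and Tyms did not differ by the test (-0.25 ± 0.18, adjusted p = 0.325). DEN long exceeded 3MeDAB long in 26 genes (14.4%, with 25.4% lower), led by Ect2 (1.97 ± 0.34), and was lower in Tyms (-1.35 ± 0.18). RNA quality did not overlap in this pair (0.520 to 0.843 in DEN long, 0.240 to 0.393 in 3MeDAB long), and its part was not tested. 2-AAF long was below 3MeDAB long in 15 genes (26.6%, with 14.5% higher), with Mki67 at -1.78 ± 0.34 and Ccnd1 at -1.73 ± 0.27, and above it in Tk1 (0.56 ± 0.14). With each rat left out, 26 to 28 genes were called for DEN against 2-AAF and 24 to 27 for DEN against 3MeDAB.

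In the nongenotoxic set DL-Ethionine long was below 1,4-Dioxane long in 23 genes (19.6% of all genes were called lower and 25.1% higher) and above it in Tyms (2.33 ± 0.18) and Ccnd1 (1.17 ± 0.27). Against Clofibrate long it was lower in 19 (19.6%, with 25.2% higher) and higher in Tyms, Ccnd1 and Pcna. RNA quality was 0.588 to 0.864 in DL-Ethionine long. That lay above 1,4-Dioxane long (0.464 to 0.586) and Clofibrate long (0.484 to 0.556), and its part was not tested. Clofibrate long and 1,4-Dioxane long gave no call in the 30 genes and none over all genes by limma (0%). At an unadjusted p under 0.05, 6 of the 30 were lower in Clofibrate long. These pairs share groups with each other and with the comparisons above.

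In some groups most of the 30 genes were highest in the same rat. DEN long 3 was highest in 30 of 30 genes, 2-AAF short 2 and Clofibrate long 1 in 28, ME long 3 and SN long 2 in 27, whereas in 2-AAF long and DL-Ethionine short no rat was highest in more than 13, in 3MeDAB short and DL-Ethionine long in more than 15, and in DCP long in more than 16. The median range of a gene over the 3 rats was 1.20 log2 units in DEN long, against 0.201 over all genes, and 0.236 in 3MeDAB long, against 0.201. In the test set it was 1.09 in ME short and 0.931 in SN long, against 0.283 and 0.190 over all genes. The other groups had 0.253 to 0.726. Centred on the set's mean, the median of the 30 genes was 0.51, 0.37 and 1.71 in the 3 DEN long rats and -0.69, -0.63 and -0.89 in the 2-AAF long rats.

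**Figure D3:**
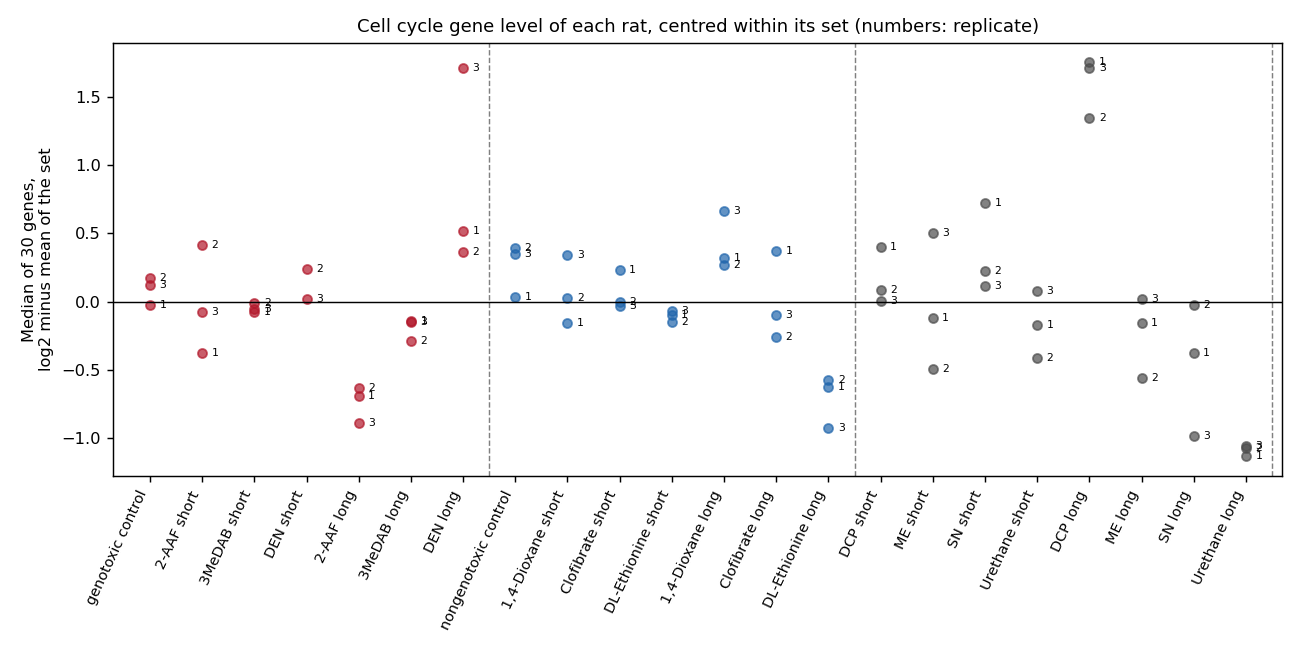
Median of the 30 genes in each rat, as log2 minus the gene's mean over the rats of its set, with the replicate number beside each point (genotoxic set red, nongenotoxic blue, test set grey). DEN long 3 stands at 1.71 above its group's other rats at 0.51 and 0.37, and the 3 Urethane long rats lie together between -1.13 and -1.06.

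The test set has no control, so each compound was set against the mean of the other 3 at the same duration. In DCP long nearly the whole list was higher than in the other compounds. By limma 29 of 30 genes were higher and none lower (none at an unadjusted p under 0.05). Of all genes 13.5% were called higher and 14.5% lower, and the median difference was 2.28 against -0.02. Set against ME and SN alone, an alternative added after the values were seen, the median of the 30 was 2.00. Ccna2 (4.03 ± 0.38, adjusted p = 3.67e-07), Ect2 (3.50 ± 0.33), Mki67 (3.26 ± 0.34) and Cdk1 (3.21 ± 0.32) led. Ccnd1 was the exception, at -0.12 ± 0.20 (adjusted p = 0.727), and its other probe sets were at 0.06 and 0.30. In 28 of the 30 genes every DCP long rat lay above all 9 rats of the other long groups, which held for 9.48% of all genes. With each rat left out 28 or 29 calls were left. Of 12 macrophage markers 2 were higher and 1 lower, with a mean log2 level of 9.25 to 9.38 against 8.24 to 9.13 in the other long groups. Of 8 endothelial markers 5 were higher (8.33 to 8.36 against 7.72 to 8.19). The mean of 7 cholangiocyte and progenitor markers was 6.17 to 6.56 in DCP long. It was 5.99 to 6.05 in ME long, 5.86 to 6.01 in SN long and 5.80 to 6.18 in Urethane long, which overlapped DCP long. Their part was not tested.

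In Urethane long the genes were low. Of 30 genes 27 were lower and none higher by limma (none at an unadjusted p under 0.05), where 5.39% of all genes were called lower and 3.85% higher, with a median of -1.32 against 0.02. Ccna2 (-3.87 ± 0.38, adjusted p = 5e-06), Cdkn3 (-3.66 ± 0.40), Ect2 (-3.14 ± 0.33) and Mki67 (-2.94 ± 0.34) had the most negative differences. Ccna2 in Urethane long, at 2.83, 3.87 and 2.80, lay near the lowest signal of any probe set on the test arrays (2.28 to 2.40), where RMA values give little resolution, so the sizes of these differences are not exact. Pcna (-0.25 ± 0.09), Ccne1 (-0.16 ± 0.13) and Tyms (0.26 ± 0.16) were not called. Since DCP long, with its high values, is among the groups compared with, Urethane long was also set against ME and SN alone, an alternative added after the values were seen. Then 14 genes were lower (3.76% of all genes, with 2.62% higher), and the median of the 30 was -0.72 against 0.01 over all genes. Cdkn3 was at -2.95 ± 0.42, Ccna2 at -2.84 ± 0.41, Ect2 at -2.22 ± 0.34 and Mki67 at -2.09 ± 0.36. DCP long, set against ME and SN alone, stayed higher in 29 genes (12.9%, with 14.2% lower). Of 8 erythroid markers 3 were lower in Urethane long, with a mean log2 level of 6.32 to 6.66 against 7.01 to 7.66 in the other long groups and no overlap, and of 12 macrophage markers 1 was lower. Their part was not tested.

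SN long had Ccnd1 higher (0.98 ± 0.20) and Plk1 lower (-0.46 ± 0.10) than the other test compounds, where 1.86% of all genes were called higher and 1.12% lower. Ccnd1 was not called without SN long 1 (adjusted p = 0.112), and Plk1 was not without SN long 1 or SN long 3 (up to 0.146). At an unadjusted p under 0.05, 16 genes were lower. ME long had no call by limma (0.816% of all genes higher and 0.626% lower), with 3 genes lower at that unadjusted p. Among the short groups, DCP short had Pcna (0.54 ± 0.09) and Ccne2 (0.62 ± 0.15) higher and Ccnd1 lower (-0.96 ± 0.20), against 11% and 19.9% of all genes. Both counts are below those shares. Ccne2 is a low signal, above the median of all test values (5.65) on fewer than 2 arrays. In DCP long its other probe set was at -0.14, where the one used was at 1.02. ME short, SN short and Urethane short had none by limma, where 2.76%, 6.75% and 2.03% of all genes were called higher and 2.95%, 2.42% and 2.47% lower. At an unadjusted p under 0.05, 8 genes were higher and 1 lower in SN short and 3 were lower in Urethane short. ME short 3 was the highest rat of its group in 26 genes, and without it 4 genes were called in SN short and 1 in Urethane short.

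**Figure D4:**
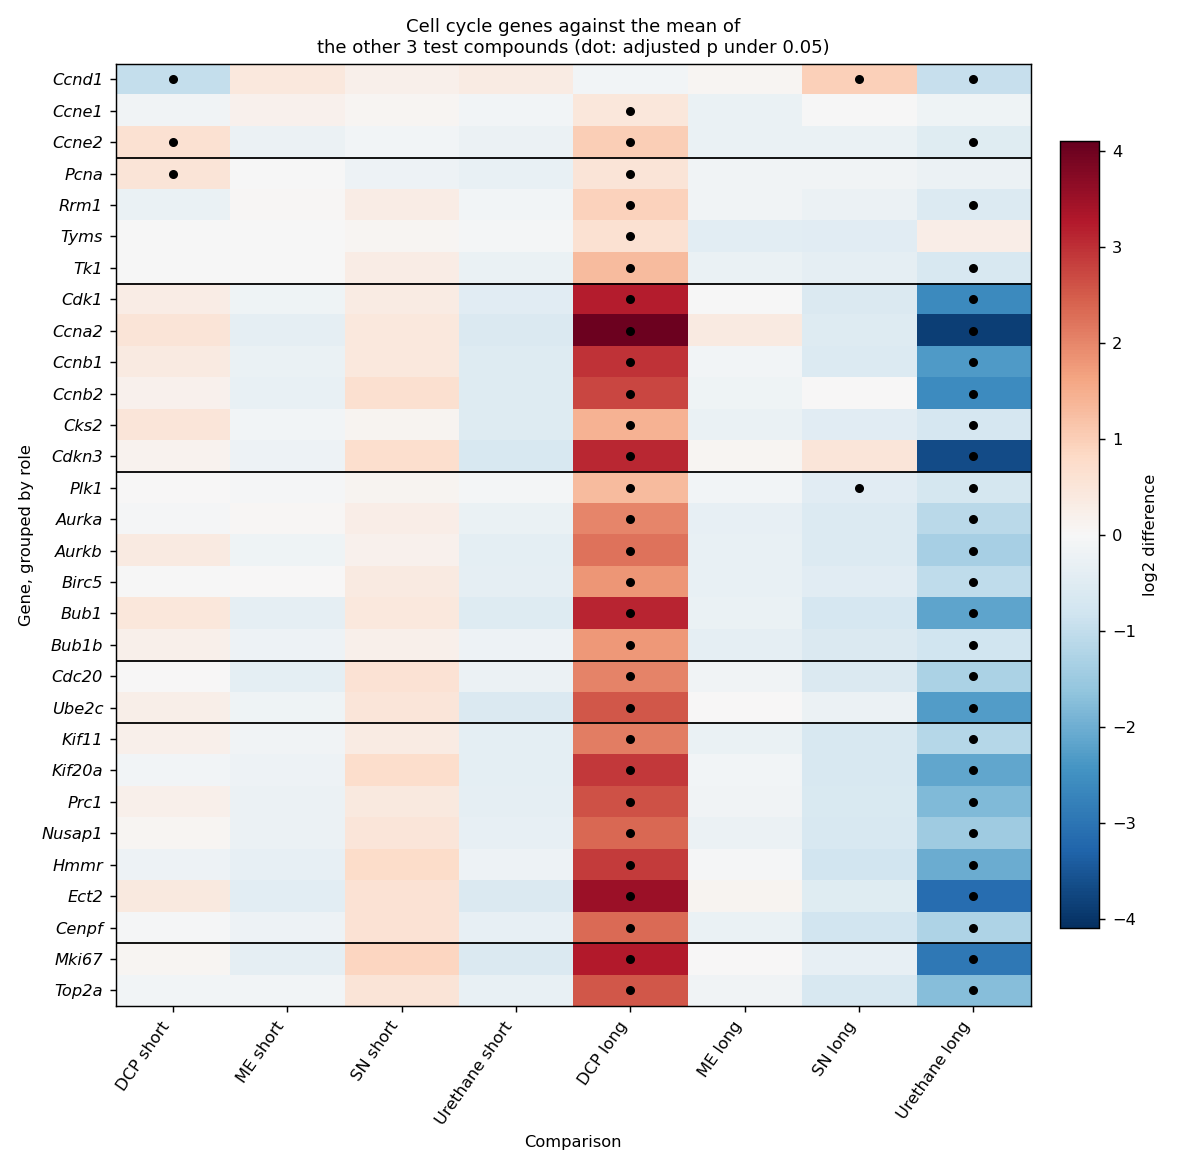
Log2 difference of each of the 30 genes (rows, grouped by role) between a test group and the mean of the other 3 compounds at the same duration (columns), with a dot where the adjusted p was under 0.05. DCP long is red in 29 of 30 genes and Urethane long blue in 27, and Ccnd1 is not called in DCP long.

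The values of single rats in the test set showed the same order. Ccna2 was at 9.001, 8.86 and 9.43 in DCP long, 6.48, 5.67 and 6.89 in ME long, 6.03, 6.49 and 4.50 in SN long and 2.83, 3.87 and 2.80 in Urethane long. DCP long stood above and Urethane long below the rest with no overlap, whereas ME long and SN long overlapped. Ccnb2 was at 9.08, 9.02 and 9.93 in DCP long, 7.33, 6.52 and 7.62 in ME long, 7.48, 7.88 and 6.53 in SN long and 5.26, 5.55 and 5.23 in Urethane long, in the same order.

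Ccnd1 went another way, with 8.89, 7.98 and 7.96 in DCP long, 8.38, 8.43 and 8.46 in ME long, 9.49, 9.02 and 8.79 in SN long and 7.48, 8.07 and 7.41 in Urethane long. Its lower level in Urethane long (-0.95 ± 0.20, adjusted p = 0.00582) overlapped DCP long and was not called without Urethane long 1 or Urethane long 3 (up to 0.0574). Plk1 was at 7.44, 7.34 and 7.35 in DCP long, 6.27, 6.35 and 6.39 in ME long, 5.90, 6.27 and 6.04 in SN long and 5.91, 6.02 and 5.67 in Urethane long. DCP long lay above all other rats, and Urethane long overlapped SN long. Pcna was at 10.25, 9.78 and 9.78 in DCP long and 9.21 to 9.58 in the other 9 long rats, all lower.

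The remaining role groups of the test set followed. Cks2, called with no training compound against its control, was at 10.24, 9.84 and 10.21 in DCP long and 8.24 to 9.04 in the other long groups (1.44 ± 0.20, adjusted p = 2.58e-05). Cdc20 was at 8.78, 8.44 and 8.62 in DCP long, 6.98, 6.55 and 7.42 in ME long, 6.68, 7.18 and 6.06 in SN long and 6.01, 6.19 and 6.17 in Urethane long. Prc1 was at 8.89, 8.81 and 9.18 in DCP long and 5.31, 5.73 and 5.88 in Urethane long. DCP long lay apart from the other rats in all 3 genes, while SN long 3 fell among the Urethane long rats in Cdc20 (6.06) and Prc1 (5.64). Top2a was at 8.89, 8.38 and 8.63 in DCP long and 5.36, 5.56 and 5.35 in Urethane long, with the 6 ME long and SN long rats between 5.74 and 7.06.

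**Figure D5:**
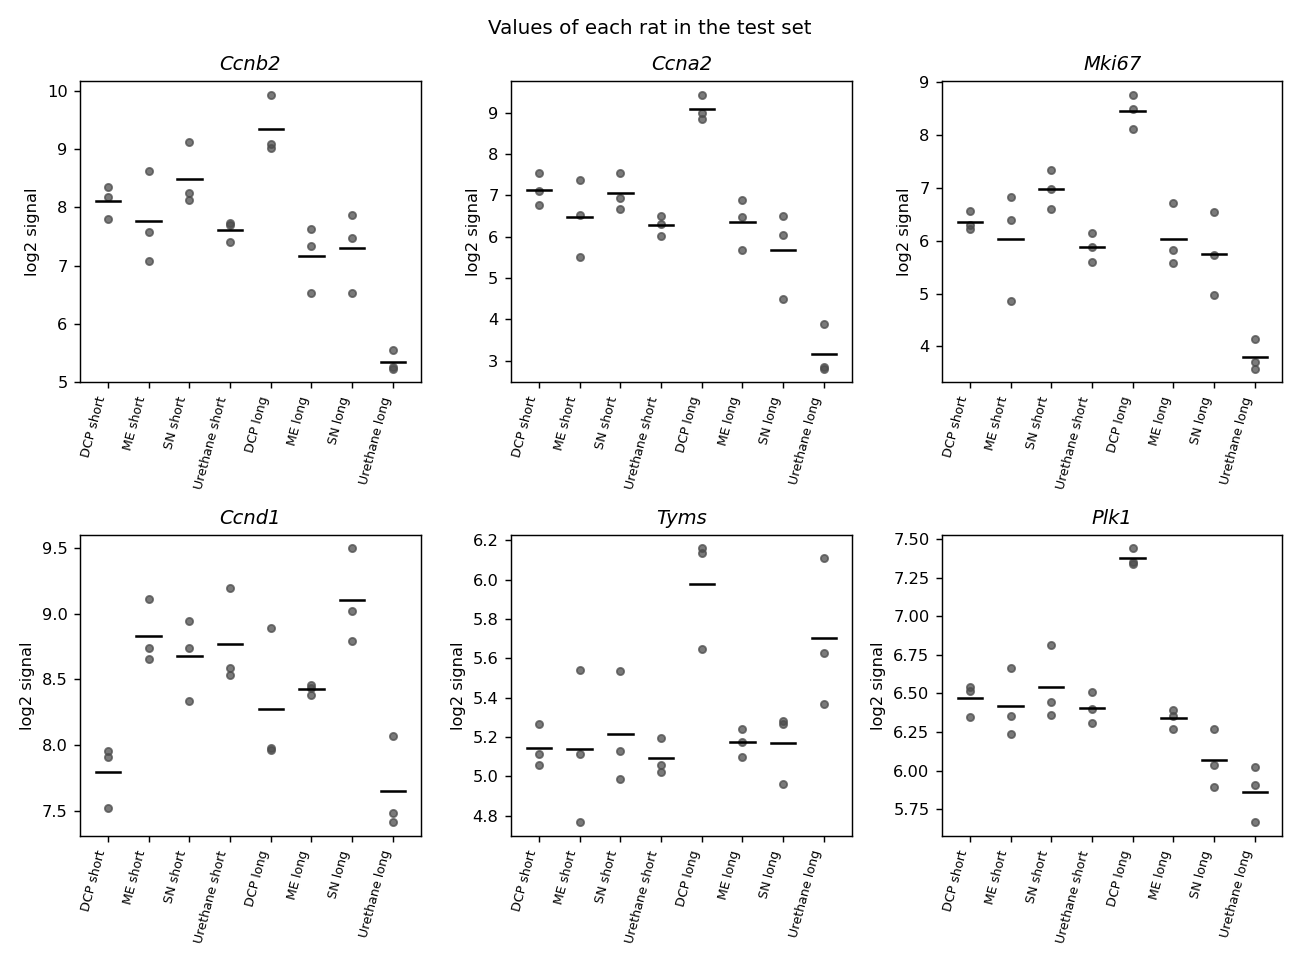
Log2 signal of each rat (points) and group mean (bars) for 6 genes in the 8 groups of the test set. Ccna2, Ccnb2 and Mki67 are highest in DCP long and lowest in Urethane long, whereas Ccnd1 is highest in SN long among the long groups. Tyms stays between 4.77 and 6.16 and was still called higher in DCP long (0.81 ± 0.17 against ME and SN alone).

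The long groups of the test set differ from the short ones in both time and number of doses. From short to long, 25 genes were higher in DCP and none lower by limma (18.6% and 10.6% of all genes). At an unadjusted p under 0.05, 1 member was lower. Mki67 was at 2.10 ± 0.41 and Hmmr at 1.96 ± 0.32. In Urethane 15 were lower in the long group (3.57%, with 4.7% higher), led by Cdkn3 (-3.42 ± 0.49), Ccna2 (-3.11 ± 0.47) and Ect2 (-2.52 ± 0.40). In SN Hmmr (-1.50 ± 0.32) and Plk1 (-0.47 ± 0.13) were lower in the long group (1.96%, with 0.914% higher), 23 genes were lower at an unadjusted p under 0.05, and 0 to 6 were called with each rat left out. None was called without SN short 1 or without SN long 3, 1 without SN short 3 or SN long 1, and 6 without SN long 2. In ME Ccne1 alone was lower (-0.73 ± 0.16, with 5.38% of all genes lower and 5.54% higher), and 2 genes were without ME short 3.

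Other genes of the cycle, from lists of known cycle genes, moved as follows. The shares of all genes called lower and higher, to set beside each count, were 12.1% and 12.6% in 2-AAF long, 15.1% and 28.1% in 3MeDAB long, 4.74% and 8.48% in DEN long and 18.5% and 23.9% in DL-Ethionine long. They were 14.5% and 13.5% in DCP long and 5.39% and 3.85% in Urethane long. Of 49 other mitosis genes measured, 17 fell and 1 rose in 2-AAF long, 5 fell and 4 rose in 3MeDAB long, 20 rose and 0 fell in DEN long, and 23 fell and 2 rose in DL-Ethionine long. In 3MeDAB long both counts are below those shares. Cdca3, a gene of mitotic entry, fell in 2-AAF long (-1.69 ± 0.30) and DL-Ethionine long (-1.92 ± 0.30), while Zwint, of the kinetochore, rose in 3MeDAB long (1.21 ± 0.21). In the test set 45 were higher in DCP long and 41 lower in Urethane long, with Kif20b at 3.11 ± 0.28 and Pttg1, securin, at -2.05 ± 0.23.

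Of the replication origin and fork genes 47 were measured. In 2-AAF long 8 fell and 4 rose, in 3MeDAB long 8 fell and 10 rose, and in DL-Ethionine long 7 fell and 12 rose, and in DEN long 23 rose and 1 fell. In 2-AAF long, 3MeDAB long and DL-Ethionine long these counts lie near the shares of all genes, and nothing is read from them. Mcm6, a subunit of the replicative helicase, fell in 2-AAF long (-1.30 ± 0.20) and rose in DEN long (1.77 ± 0.20). Rfc4, of the clamp loader, rose in 2-AAF long (0.88 ± 0.18) and 3MeDAB long (1.09 ± 0.18). In DCP long 29 were higher and 1 lower, and in Urethane long 12 were lower, with Mcm6 at 1.34 ± 0.24 and -1.43 ± 0.24.

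Among 7 CDK inhibitor genes, Cdkn1a, which encodes the p53-induced inhibitor p21, rose in all 4 of these training groups, by 3.87 ± 0.43 in 2-AAF long, 4.48 ± 0.43 in 3MeDAB long, 4.15 ± 0.43 in DEN long and 4.79 ± 0.43 in DL-Ethionine long. It was also higher in Urethane long (1.78 ± 0.32). Of the other 6, 1 fell in 2-AAF long, 1 fell in 3MeDAB long, 1 rose in DEN long and none was called in DL-Ethionine long, and 2 were lower in Urethane long. In DCP long 3 of the 7 were higher, and Cdkn1a was not among them. Of 21 cell cycle transcription factor genes, 7 fell and 2 rose in 2-AAF long, 3 fell and 8 rose in 3MeDAB long, 2 fell and 4 rose in DEN long, and 7 fell and 5 rose in DL-Ethionine long. The 3 lower in 3MeDAB long and the 5 higher in DL-Ethionine long are near the shares of all genes. Mybl2, B-Myb, rose in 2-AAF long (1.04 ± 0.13), 3MeDAB long (1.20 ± 0.13) and DL-Ethionine long (1.12 ± 0.13). In DCP long 6 were higher and 1 lower, with E2f8 at 1.43 ± 0.16, and in Urethane long 5 were lower, with E2f2 at -0.88 ± 0.15. Of 14 other cyclins, CDKs and CDC25 phosphatases, Cdc25b, an activator of CDK1, fell in 2-AAF long (-1.03 ± 0.34), DL-Ethionine long (-1.05 ± 0.34) and Urethane long (-2.62 ± 0.32), and Wee1, its inhibitor, rose in 3MeDAB long (1.14 ± 0.24) and DL-Ethionine long (1.01 ± 0.24).

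The 9 genes with more than 1 probe set gave 14 further probe sets. Their differences had the sign of the one used in 14 of 14 in DEN long, 13 in DL-Ethionine long, 10 in 2-AAF long, 10 in 3MeDAB long, 11 in DCP long and 12 in Urethane long.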

How the data were processed

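Values are those of the authors' table of log2 signals for 31099 probe sets on 65 arrays, made with RMA, per the submitters' processing notes and the series' design text, which give no version. RMA ends in quantile normalization and a summary per probe set. That gives the arrays of a set 1 distribution, so a shift shared by all genes would not show. A single gene symbol was listed for 20832 probe sets, several for 436 and none for 9831. The 57 control probe sets were not used.

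No filter on low values was used, so every member was tested. Linear models with 1 mean per group with eBayes came from limma 3.58.1 (R 4.3.3), training sets together (41 arrays, 27 residual degrees of freedom) and the test set alone (24 arrays, 16). In simulated data 200 of 14217 genes were changed. For DEN long the fit called 95% of changes of 1 log2 unit and 100% of changes of 2, with 9 false calls. For DCP long it called 96% and 100%, with 14 false calls. These shares cannot be read as the recovery of the 30 genes, which varied more between rats than genes at large. Their median range was 1.20 log2 units in DEN long, against 0.201 over all genes, and 0.502 in DCP long, against 0.233. The genes named are the 4 highest and 4 lowest called members of a comparison, with single rats for 1 member per role (highest mean over the arrays) and for the largest differences, and members not called. The members, lists and tests were chosen with earlier results of these data known. Alternatives were leaving out each rat, blocking on the replicate number, fitting the compared groups alone, a filter on low values, averaging a gene's probe sets, a robust fit with a trend, quantile normalization over all arrays and, added after seeing the data, ME and SN alone for DCP and Urethane.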

Additional observations from a re-analysis of the deposited data

Results flagged for a closer look

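The long and short groups of 1 compound were tested against each other, and the number of the 30 genes whose levels differed between them was 20 for 2-AAF, 17 for DL-Ethionine, 14 for DEN, 10 for 3MeDAB and 2 for 1,4-Dioxane, by limma at an adjusted p under 0.05. Over all genes the shares called either way were 27.8%, 41.1%, 23.7%, 50.4% and 3.8%, in that order. The 10 of 30 for 3MeDAB are fewer than that share, and the 2 for 1,4-Dioxane are near it. Clofibrate had 0 (2.44% of all genes), with 3 lower at an unadjusted p under 0.05.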

How the results depend on the processing

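Of 220 counts recomputed under alternatives other than leaving out a rat, 194 stayed within 1.5 times the count as reported, and no called member changed sign under any alternative. Fitted on only the compared groups, 18 genes were called in 3MeDAB long, 2 in DEN short, 10 in DEN long and 1 in 1,4-Dioxane short against the control. From short to long that fit called 8 in 2-AAF, 8 in DEN, 1 in 1,4-Dioxane, 1 in Clofibrate, 0 in ME and 1 in SN. The filter on low values gave 1 in Clofibrate, 2 in ME and 4 in SN from short to long, and 1 in Urethane short. The mean of all probe sets gave 1 in 1,4-Dioxane, 1 in Clofibrate and 1 in SN from short to long. Trend and robust gave 1 in 1,4-Dioxane, 2 in ME and 1 in SN from short to long, and 1 in Urethane short. Quantile normalization gave 1 in Clofibrate and 1 in SN from short to long. With ME and SN alone, an alternative chosen after seeing the data, 14 were called in Urethane long. The share of all genes called under each alternative is not given, here or below, so these counts stand without a background. They show only how the number of calls moved. The cause was not tested.

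The replicate block gave 1 in 1,4-Dioxane and 1 in SN from short to long, 17 in DEN long, 29 in DCP long and 27 in Urethane long. Replicate numbers did not pair the rats: the median correlation of same-numbered rats was 0.0154, -0.00714 and -0.00575 in the genotoxic, nongenotoxic and test sets.

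With each rat left out, counts against the control ran from 17 to 20 in 2-AAF long, 5 to 12 in 3MeDAB long, 4 to 23 in DEN long, 0 to 1 in DEN short, 22 to 24 in DL-Ethionine long and 0 to 1 in DL-Ethionine short. From short to long they ran from 10 to 21 in 2-AAF, 6 to 8 in 3MeDAB, 7 to 20 in DEN, 0 to 4 in 1,4-Dioxane, 13 to 17 in DL-Ethionine, 22 to 26 in DCP, 1 to 2 in ME, 0 to 6 in SN and 11 to 16 in Urethane. Between long groups they ran from 13 to 16 for 2-AAF against 3MeDAB, 26 to 28 for DEN against 2-AAF, 24 to 27 for DEN against 3MeDAB, 15 to 24 for DL-Ethionine against Clofibrate and 25 to 26 against 1,4-Dioxane. Against the other test compounds they ran from 3 to 4 in DCP short, 28 to 29 in DCP long, 0 to 4 in SN short, 0 to 3 in SN long, 0 to 1 in Urethane short and 22 to 27 in Urethane long. In 3MeDAB from short to long, more genes were lower (6) than higher (4), but without 3MeDAB long 2 the 7 called genes were 4 higher and 3 lower. The 3 rats per group, and 2 in DEN short, limit the precision.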
